A study of Homo sapiens with 4 samples.

Results

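UCA1 and 9 other RNAs with a long record in cancer biology were followed across 4 RNA-seq libraries of SCC13 cells, a human line grown from a cutaneous squamous cell carcinoma. The 10 genes are UCA1, NEAT1, MALAT1, H19, PVT1, GAS5, SNHG1, MIR31HG, MIR205HG and TINCR. They were picked by name out of the 60617 genes of the deposited count table, and each name matched 1 row. UCA1 was singled out because of its values in this same comparison, and the other names were gathered with earlier results of these data known. The differences between groups are therefore given for the 10 genes as descriptions. Adjusted p-values printed for them come from the fit over all genes and are not support for a difference.

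All 4 libraries came from polyA RNA of SCC13 cells infected with a lentivirus that expressed an shRNA. In 2 libraries the shRNA was scrambled (control shRNA), and in 2 it was directed against CELF2 (CELF2 knockdown); whether both carried the same shRNA is not stated. The labels give the genotype of every library as WT, and SCC13 is 1 cell line, so the libraries are repeats within 1 genetic background. The labels do not say whether the repeats were separate cultures, so a p-value reflects the spread among these libraries alone, and that spread may be technical.

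Long noncoding RNAs are transcripts that act as RNA: some build nuclear bodies, some guide or titrate proteins, and some are the spliced remains of transcripts whose introns or exons hold small RNAs. UCA1, urothelial carcinoma associated 1, is raised in bladder cancer and other carcinomas and has been tied to growth and drug resistance. In the epidermis TINCR is known for its part in terminal differentiation, and the microRNA made from MIR205HG is typical of stratified epithelium. CELF2 belongs to the CELF proteins, which bind stretches of RNA rich in G and U and act on splicing and mRNA stability.

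The libraries held 17649090 to 27898889 counts, and the 10 genes together took 0.112% to 0.161% of them. Levels are given as CPM, that is counts scaled to the library size after TMM normalization. A count of 3, taken as the floor of detection, corresponded to 0.107 to 0.178 CPM, a limit that covers counting error only. The mRNA of the targeted gene does not check the labels, because CELF2 was barely counted: control replicate 1 held 1 count and the other 3 libraries 0. All 9 keratinocyte markers examined were counted, with summed levels of 12123 and 20034 CPM under control shRNA and 27234 and 19793 CPM in the knockdown. Of 6 fibroblast markers 4 were at 0 (DCN, LUM, COL1A2 and COL3A1), with summed levels of 13.1 and 16.1 CPM under control shRNA and 37.6 and 20.7 CPM in the knockdown. The 4 melanocyte markers, with TYR and MLANA at 0, summed to 2.47 and 2.14 CPM under control shRNA and 3.75 and 3.87 CPM in the knockdown. The 4 endothelial markers summed to 0.572 and 0.178 CPM under control shRNA and 1.83 and 1.90 CPM in the knockdown. VWF was at 0 in both controls, and CDH5 and PECAM1 were at 0 in control replicate 2. What part these marker levels have in the differences below was not tested.

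MALAT1 and the long form of NEAT1 are unusual in that they end in a genomically encoded A-rich tract, folded into a triple helix with upstream U-rich stretches, in place of a poly(A) tail. The ends of the longest GENCODE v29 transcripts are given in DNA letters, with the shared U-rich stretch and the shared A-rich tract in capitals.
NEAT1 (transcript NEAT1-202, bases 22623 to 22743): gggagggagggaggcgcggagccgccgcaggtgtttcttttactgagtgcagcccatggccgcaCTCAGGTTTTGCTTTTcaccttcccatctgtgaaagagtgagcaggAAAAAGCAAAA
MALAT1 (transcript MALAT1-202, bases 8235 to 8355): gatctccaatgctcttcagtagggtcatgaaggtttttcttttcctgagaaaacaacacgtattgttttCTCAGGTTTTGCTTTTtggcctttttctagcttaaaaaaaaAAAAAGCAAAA
The NEAT1 model stops exactly at the tract, whereas the MALAT1 model runs on for another 353 bases, a part that is normally cleaved off. The 16-base stretch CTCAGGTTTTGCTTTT, read on the transcript strand, was found in the longest transcripts of 2 of 15098 tested genes, which are these 2. The 11-base tract AAAAAGCAAAA was found in 1.35% of them. Because the libraries were made from polyA RNA, the CPM of MALAT1 and NEAT1 can understate RNAs that end this way, and the counts cannot separate the short, polyadenylated form of NEAT1 from the long one.

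MIR205HG, MIR31HG and H19 are hosts of microRNAs. The mature sequences, from RefSeq (GRCh38.p14), are shown with the seed (bases 2 to 8) in capitals, since the seed sets which mRNAs a microRNA can pair with.
hsa-miR-205-5p, from MIR205HG: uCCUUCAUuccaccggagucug
hsa-miR-205-3p, from MIR205HG: gAUUUCAGuggagugaaguuc
hsa-miR-31-5p, from MIR31HG: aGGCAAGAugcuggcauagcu
hsa-miR-675-5p, from H19: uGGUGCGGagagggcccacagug
hsa-miR-675-3p, from H19: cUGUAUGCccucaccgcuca
No 2 of these 5 microRNAs share a seed. PolyA RNA-seq counts the host transcripts, not the mature microRNAs, so none of the values below is a microRNA level.

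GAS5 and SNHG1 carry small nucleolar RNAs (snoRNAs) in their introns. Genes of this class often begin with a run of pyrimidines, which places their spliced RNA under the translational control of ribosomal protein mRNAs. For each gene the first listed RefSeq start was used (GRCh38.p14, minus strand). The 10 bases before and 50 bases after it are shown, with the first run of at least 7 pyrimidines in capitals.
GAS5 (chr1:173868996-173869055): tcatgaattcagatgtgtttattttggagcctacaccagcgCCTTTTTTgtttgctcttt
SNHG1 (chr11:62855836-62855895): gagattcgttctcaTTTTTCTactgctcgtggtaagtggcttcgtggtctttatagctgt
Counted from these starts, the run began at base 32 in GAS5 and at base 5 in SNHG1. The GAS5 window lies wholly outside the GENCODE v29 gene, whose highest coordinate is 173868882. Its start is therefore not that of the GENCODE model, and other starts of GAS5 were not examined. Such a run lay in the first 50 transcribed bases of 26.7% of all 35116 start windows in the table. It also lay in 9 of the 24 other noncoding snoRNA host genes found there. A host gene was counted if any of its windows held a run, whereas the share over all is per window. These figures therefore cannot be compared directly. Start windows were matched for 6 of the 10 genes; UCA1, NEAT1, PVT1 and TINCR had no entry.

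GU-rich letters, the kind of sequence that CELF proteins bind, differed widely among the 10 RNAs. The 7-base word TGTTTGT, searched on the transcript strand, occurred 5 times in the longest NEAT1 transcript, 2 times in MALAT1, 1 time in UCA1 and not in the other 7. These 3 transcripts have 22743, 8708 and 2687 bases, and the matches per kb were 0.22, 0.23 and 0.37. The word was present in 36.3% of the longest transcripts of the 15098 tested genes. Its longest run of overlapping copies in NEAT1, TGTTTGTTTGT, occurred 1 time in NEAT1 and in 2.46% of all. The following stretches hold the UCA1 match, the longest NEAT1 run and the longest TG repeat of NEAT1 in capitals, counted from base 1 of the transcript. The MALAT1 matches and the remaining NEAT1 matches are not shown.
UCA1 (transcript UCA1-213, bases 1457 to 1513): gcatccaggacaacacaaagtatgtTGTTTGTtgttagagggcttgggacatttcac
NEAT1 (transcript NEAT1-202, bases 18508 to 18568): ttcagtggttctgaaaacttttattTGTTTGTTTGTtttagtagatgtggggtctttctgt
NEAT1 (transcript NEAT1-202, bases 21442 to 21549): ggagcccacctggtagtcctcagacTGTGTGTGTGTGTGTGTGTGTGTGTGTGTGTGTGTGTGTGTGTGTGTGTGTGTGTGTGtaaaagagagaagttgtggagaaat
The 5-base word TGTGT, with overlapping matches counted, occurred 117 times in NEAT1-202, or 5.14 times per kb, against a median of 1.36 per kb over the tested genes. SNHG1 had 3.25 per kb and MALAT1 1.49 per kb, while UCA1 and MIR205HG had none. These matches describe letters only and show no binding.

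UCA1 was higher in both knockdown libraries, with little spread within either group. UCA1 (ENSG00000214049) lies on chromosome 19 at 15828206 to 15836326, plus strand, and GENCODE v29 (GRCh38) gives it as a lincRNA with 36 transcripts over 4152 exonic bases. It stood at 19.6 and 19.4 CPM in the control libraries and at 96.9 and 85.4 CPM in the knockdown libraries. The libraries of a group lay close together and the groups did not overlap. The mean went from 19.5 ± 0.117 CPM under control shRNA to 91.1 ± 8.14 CPM under knockdown (SD, n = 2 each). That is 4.67-fold, or 2.22 ± 0.18 (SE) as a log2 fold change. In bulk RNA, more RNA per cell and more cells that express a gene cannot be told apart, here or for the genes that follow. The value ran from 2.14 to 2.31 when each library was left out in turn. Of the UCA1 exonic bases, 489 are shared with LINC01764 on the opposite strand, and no source used here gives the strand setting of the counting; LINC01764 itself was given 14 counts over the 4 libraries, against 327 to 2027 for UCA1 in each.

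Of the 10 genes, 1 (UCA1) was among the genes called at an adjusted p under 0.05 (edgeR quasi-likelihood test, Benjamini-Hochberg adjustment over all 15170 tested genes), and 0.877% of all tested genes were, 0.606% of them as higher in the knockdown. Among the 1473 tested lncRNA genes of GENCODE v29 the shares were 0.611% in all and 0.475% higher. The comparison itself led to the choice of UCA1, and the other names were gathered with earlier results known. Nothing is therefore read from that count, or from the calls of UCA1, H19 and TINCR by setting that follow. UCA1 was not called by limma-voom (adjusted p = 0.0558) or by edgeR without control replicate 1 (adjusted p = 0.0955). H19 and TINCR, at edgeR adjusted p = 0.0691 and 0.0758, were called by DESeq2 (adjusted p = 0.000263 and 0.00457) and by edgeR without the filter on low counts. H19 was also called by edgeR with library totals (adjusted p = 0.04999), without control replicate 2 and without knockdown replicate 1. For comparison, DESeq2 called 9.11% of all tested genes, and 22.1% had an unadjusted p under 0.05 in edgeR. The limma-voom fit called 0 of all tested genes. A 0 from limma-voom in any set of genes was therefore fixed in advance. For 6 of the 10 the groups did not overlap, which was also so for 54.9% of all tested genes and 47.8% of the tested lncRNA genes. Those 6 were UCA1, H19, TINCR, GAS5, SNHG1 and PVT1; the first 3 stood higher in the knockdown and the last 3 lower. The median log2 fold change was 0.05 over the 10 genes, 0.14 over the tested lncRNA genes and -0.0036 over all tested genes.

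**Figure D1:**
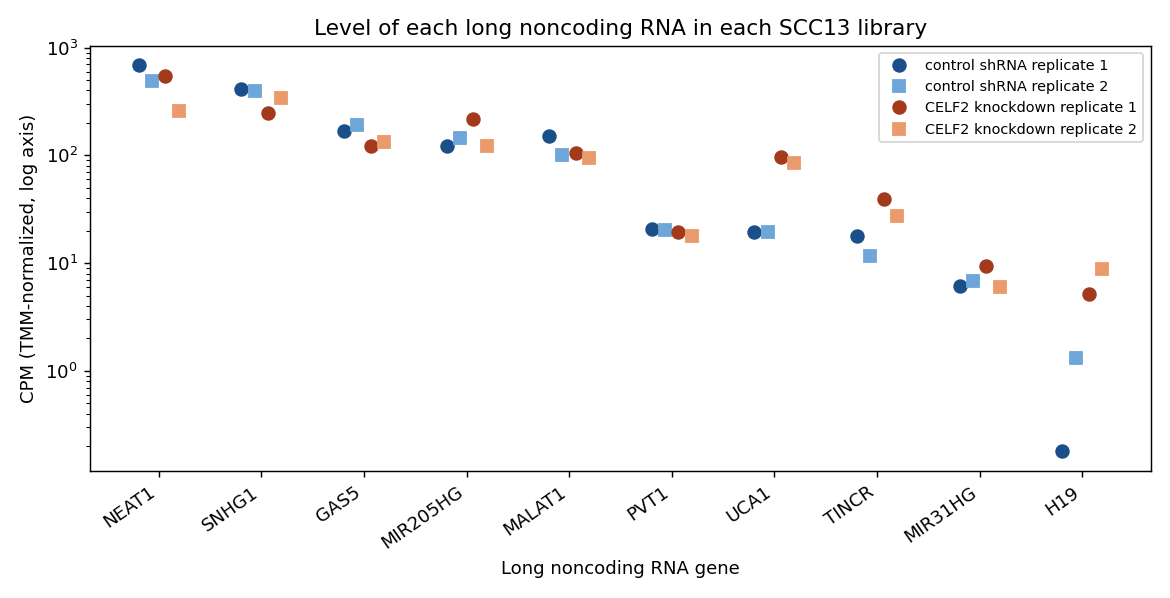
CPM (TMM-normalized, log axis) of each of the 10 genes in each library, with circles for replicate 1 and squares for replicate 2 of the control shRNA (blue) and CELF2 knockdown (red) groups. UCA1 sits near 19.5 CPM in both controls and at 85.4 and 96.9 CPM in the knockdown, while the NEAT1, MALAT1, MIR205HG and MIR31HG points of the groups overlap.

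H19 had the largest fold change of the 10, from the lowest level. H19, an imprinted RNA expressed from the maternal chromosome in fetal tissue and often reactivated in tumors, lies on chromosome 11 at 1995176 to 2001470, minus strand. Its counts were 5 and 22 under control shRNA and 105 and 209 under knockdown, that is 0.179 and 1.31 CPM against 5.18 and 8.80 CPM. Both knockdown libraries lay above both controls, but the controls themselves differed 7.31-fold. Their exact 95% Poisson intervals, 0.0580 to 0.417 CPM and 0.819 to 1.98 CPM, did not overlap, so the control replicates differed by more than counting error. The log2 fold change was 3.35 ± 0.76 (SE); leaving out control replicate 1 gave 2.41 and leaving out control replicate 2 gave 5.27, and its size therefore rests on which control is used.

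Most of the tested genes around H19 also had higher values in the knockdown. Of 6 tested genes within 200 kb, 5 had a log2 fold change above 0, with a median of 2.35 over the 6, and 0 passed the test over all genes (edgeR quasi-likelihood test). An unadjusted p under 0.05 was reached by 4 (66.7%, against 22.1% of all tested genes), and DESeq2 called 3 (50.0%, against 9.11%). TNNT3, among those above 0, had only 1 and 2 counts in the controls, under the floor of 3 counts. LSP1, a leukocyte-specific actin-binding protein 102.9 kb away, stood at 0.608 and 0.654 CPM under control shRNA and at 6.22 and 3.03 CPM in the knockdown (adjusted p = 0.0525, edgeR). TNNI2, a fast skeletal muscle troponin, stood at 1.47 and 0.594 CPM against 8.69 and 2.65 CPM. The nearest gene, MRPL23, a mitochondrial ribosomal protein 10.7 kb away, stood at 4.29 and 7.37 CPM against 5.72 and 4.30 CPM, with overlapping groups. Knockdown replicate 1 held the highest value of TNNT3, LSP1, TNNI2, SYT8 and TH, whereas H19 was highest in knockdown replicate 2.

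**Figure D2:**
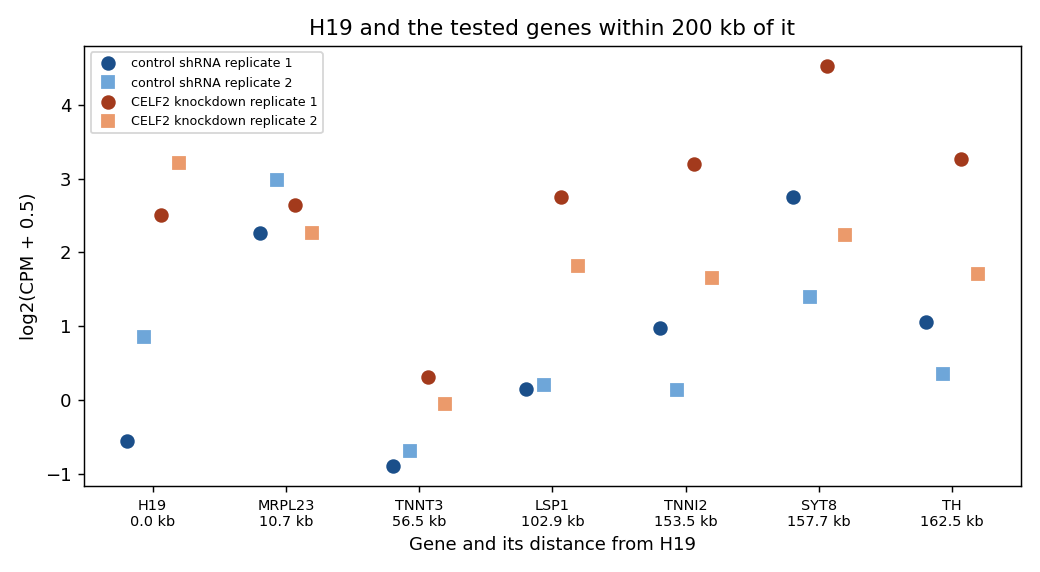
Level of H19 and of the 6 tested genes within 200 kb of it, as log2(CPM + 0.5), in each library; the second line of each label is the distance in kb. H19, TNNT3, LSP1, TNNI2 and TH have both knockdown libraries above both controls, and MRPL23 and SYT8 do not.

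TINCR was higher in both knockdown libraries. It lies on chromosome 19 at 5558167 to 5578349, minus strand. TINCR binds the RNA-binding protein STAU1 and is needed for the terminal differentiation of keratinocytes; GENCODE v29 lists it as protein coding, and it can also encode a small ubiquitin-like protein. It stood at 17.8 and 11.8 CPM in the controls and at 39.3 and 27.4 CPM in the knockdown. The groups did not overlap, and the log2 fold change of 1.17 ± 0.28 (SE) kept its sign with any 1 library left out (0.90 to 1.49). The replicates differed 1.51-fold in the controls and 1.43-fold in the knockdown, against 2.25-fold between the groups.

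Around TINCR, a list of its partners and of late differentiation genes was examined. Of 13 tested members 0 passed in edgeR, which called 0.877% of all tested genes. In edgeR 3 (23.1%, against 22.1% of all tested genes) had an unadjusted p under 0.05, and DESeq2 called 3 (23.1%, against 9.11%). The median log2 fold change was 0.72, with 10 of the 13 above 0, beside 50.3% of all tested genes below 0. MAF, a transcription factor of late epidermal differentiation, differed by 3.06 ± 0.57 (SE) on the log2 scale. KRT80, a keratin of differentiating layers, differed by 1.27 ± 0.25. In both genes the groups did not overlap, as in 6 of the 13 (46.2%, against 54.9% of all tested genes). MAF stood at 0.751 and 0.535 CPM in the controls and at 7.90 and 3.12 CPM in the knockdown.

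The snoRNA hosts GAS5 and SNHG1 were both lower in the knockdown. GAS5, named for its rise in growth-arrested cells, lies on chromosome 1 at 173863900 to 173868882, minus strand. It stood at 168 and 190.1 CPM in the controls and at 123 and 134 CPM in the knockdown, without overlap, a log2 fold change of -0.48 ± 0.16 (SE). The 5 tested genes within 200 kb of GAS5 also lay below 0, with a median of -0.24, and 0 of them passed (edgeR; 2, or 40.0%, at an unadjusted p under 0.05 against 22.1% of all tested genes). SNHG1, on chromosome 11 at 62851988 to 62855914, minus strand, stood at 415 and 397 CPM against 245 and 342 CPM. Its log2 fold change of -0.47 ± 0.20 (SE) became -0.24 with knockdown replicate 1 left out and -0.73 with knockdown replicate 2 left out, the knockdown replicates having differed 1.40-fold.

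Other noncoding snoRNA hosts mostly lay below 0 as well. Of 24 tested host genes 1, SNHG12, fell and 23 did not pass (edgeR quasi-likelihood test, which called 0.877% of all tested genes). SNHG12 stood at 49.3 and 43.9 CPM in the controls and at 19.1 and 19.3 CPM in the knockdown libraries, a log2 fold change of -1.28 ± 0.18 (SE; edgeR adjusted p = 0.0483). The call was lost without control replicate 1, without knockdown replicate 2 and with limma-voom, where 0 of the list were called, while DESeq2 called 8 (33.3%, against 9.11% of all tested genes). The log2 fold change was below 0 in 21 of the 24 (87.5%, against 50.3% of all tested genes) and the list's median was -0.40, or -0.62 without knockdown replicate 2. SNHG4 (-1.67), SNHG7 (-1.34), DANCR (-1.05) and SNHG5 (-0.95) did not pass, although their groups did not overlap. In 17 of the 24 (70.8%, against 54.9% of all tested genes and 47.8% of tested lncRNA genes) the groups did not overlap, 16 lower and 1 higher. SNHG29, the most abundant of them, stood at 256 and 299 CPM against 295 and 252 CPM.

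**Figure D3:**
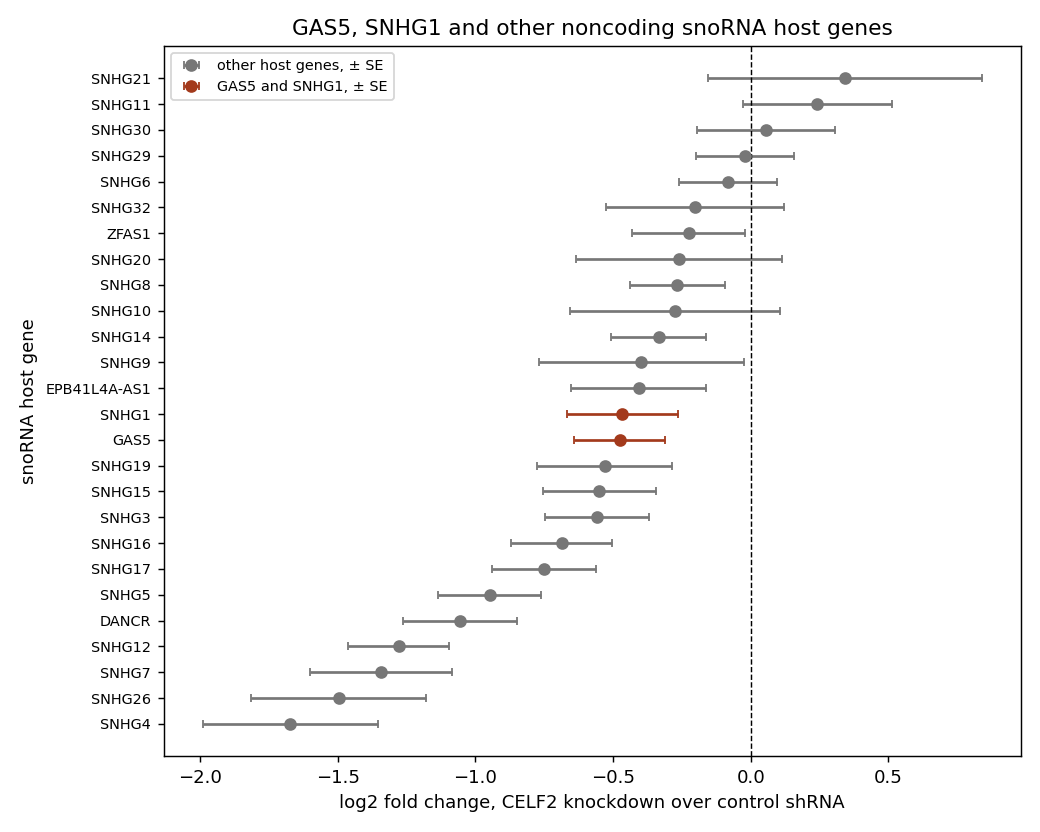
log2 fold change (CELF2 knockdown over control shRNA, ± SE) of GAS5 and SNHG1 (red) and of the 24 other tested noncoding snoRNA host genes (grey), in order of size. GAS5 and SNHG1 lie in the middle of the class at -0.48 and -0.47, between SNHG4 at -1.67 and SNHG21 at 0.34.

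NEAT1 and MALAT1 did not separate the groups. Both are nuclear RNAs made 52.1 kb apart on chromosome 11: NEAT1 (65422774 to 65445540, plus strand) is the scaffold of paraspeckles, and MALAT1 (65497688 to 65506516, plus strand) gathers in nuclear speckles, which store splicing factors. NEAT1 stood at 686 and 493 CPM in the controls and at 548 and 258 CPM in the knockdown. Knockdown replicate 1 lay between the controls, and the knockdown libraries differed 2.12-fold. The log2 fold change was -0.55 ± 0.35 (SE); it was -1.18 with knockdown replicate 1 left out and -0.11 with knockdown replicate 2 left out.

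MALAT1 stood at 153 and 100.3 CPM in the controls and at 104 and 94.3 CPM in the knockdown. Control replicate 1 was the high library and the other 3 lay close together. The log2 fold change was -0.35 ± 0.22 (SE), and -0.02 without control replicate 1.

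The proteins that share nuclear bodies with NEAT1 and MALAT1 mostly had lower values in the knockdown. Of 26 tested paraspeckle proteins 0 passed in edgeR, which called 0.877% of all tested genes. In edgeR 9 (34.6%, against 22.1% of all tested genes) had an unadjusted p under 0.05, and DESeq2 called 6 (23.1%, against 9.11%). Of the 26, 23 lay below 0 (median log2 fold change -0.34). NONO, a core paraspeckle protein that binds NEAT1, stood at 474 and 424 CPM in the controls and at 285 and 272 CPM in the knockdown libraries, a log2 fold change of -0.69 ± 0.17 (SE), and TAF15, an RNA-binding protein, had -0.84 ± 0.16. Of 17 tested nuclear speckle proteins 0 passed in edgeR (against 0.877%), with a median of -0.30 and 16 of the 17 below 0. An unadjusted p under 0.05 in edgeR was found for 7 (41.2%, against 22.1%), and DESeq2 called 2 (11.8%, against 9.11%). The splicing factors SRSF1 and SRSF3 had -1.07 ± 0.21 and -0.86 ± 0.18.

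The microRNA hosts MIR205HG and MIR31HG overlapped between the groups. MIR205HG, on chromosome 1 at 209428820 to 209432838, plus strand, stood at 122 and 144 CPM in the controls and at 218 and 123 CPM in the knockdown. Only knockdown replicate 1 was high, and the log2 fold change of 0.35 ± 0.27 (SE) became -0.11 without that library. MIR205HG shares 39 exonic bases with the separate MIR205 entry on the same strand, which was given 175 counts over all libraries. That entry stood at 1.29 and 0.654 CPM in the controls and at 4.10 and 1.90 CPM in the knockdown. Its groups did not overlap, and it did not pass (edgeR quasi-likelihood test). MIR31HG, on chromosome 9 at 21455642 to 21559669, minus strand, stood at 6.11 and 6.77 CPM against 9.38 and 5.94 CPM, and its log2 fold change of 0.25 ± 0.33 (SE) also became -0.11 without knockdown replicate 1. MIR31HG and its microRNA miR-31 are abundant in many squamous carcinomas. Of the 745 exonic bases of MIR31HG, 303 lie opposite the pseudogene IFNWP19, which had 0 counts.

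Of 22 tested mRNAs named in earlier work as targets of miR-31 or miR-205, 1 rose and 21 did not pass (edgeR quasi-likelihood test). That test called 0.877% of all tested genes. In edgeR 3 (13.6%, against 22.1% of all tested genes) had an unadjusted p under 0.05, and DESeq2 called 1 (4.5%, against 9.11%). The groups did not overlap in 13 of the 22 (59.1%, against 54.9%). LRP1, a large endocytic receptor reported as a miR-205 target, stood at 41.7 and 38.3 CPM in the controls and at 116 and 84.1 CPM in the knockdown libraries, a log2 fold change of 1.32 ± 0.21 (SE; edgeR adjusted p = 0.0483). This call was lost without control replicate 1, without knockdown replicate 2 and with limma-voom. The median of the list was -0.02, with 11 of the 22 above 0. FZD3, a WNT receptor reported as a miR-31 target, had -0.72 ± 0.24 and did not pass.

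PVT1 had the smallest fold change of the 10. It lies next to MYC on chromosome 8 and is often amplified together with it. PVT1 stood at 20.9 and 20.1 CPM in the controls and at 19.2 and 17.9 CPM in the knockdown libraries. The log2 fold change was -0.14 ± 0.20 (SE), with -0.19 to -0.10 when each library was left out; the groups did not overlap, but they lay only 1.10-fold apart. MYC, 53.1 kb away, stood at 176 and 166 CPM in the controls and at 172 and 206 CPM in the knockdown, with overlapping groups.

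**Figure D4:**
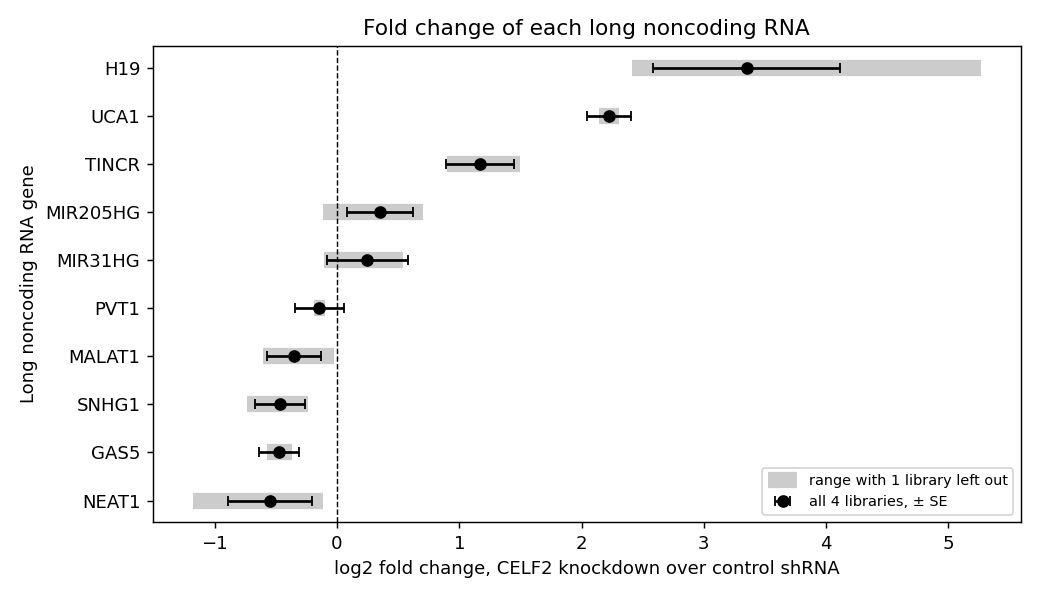
log2 fold change (CELF2 knockdown over control shRNA) of each of the 10 genes with all 4 libraries (points, ± SE), and the range when 1 library is left out (grey bars). The bar of UCA1 is narrow at 2.14 to 2.31, that of H19 is wide at 2.41 to 5.27, and those of MIR205HG and MIR31HG cross 0.

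Per kb of exonic length, SNHG1 had the highest level of the 10, with a mean of 93.1 CPM per kb over the 4 libraries, and H19 the lowest, with 1.33. In between came MIR205HG (43.1), GAS5 (42.4), NEAT1 (21.8), UCA1 (13.3), MALAT1 (12.8), MIR31HG (9.46), TINCR (5.43) and PVT1 (3.56). The ranges over libraries overlapped between MIR205HG and GAS5 and between each pair of neighbours from NEAT1 down to PVT1. UCA1 changed its place within this order: at 4.72 and 4.68 CPM per kb in the controls it lay below MALAT1 and MIR31HG, and at 23.3 and 20.6 in the knockdown it lay above both. Among the 1473 tested lncRNA genes on this scale, UCA1 ranked 121 by its mean in the controls and 17 by its mean in the knockdown, and SNHG1 ranked 2 and 2. NEAT1 is understated on this scale where reads come from its short form, since its full length was used. Exonic length is the union over all GENCODE v29 transcripts of a gene, so the order and ranks also depend on the annotation. For GAS5 it was 3631 bases against 1698 in the longest transcript, whereas MIR31HG had 1 transcript of 745 bases.

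UCA1 has few counted neighbours. Of 3 tested genes within 200 kb, all at higher coordinates, 0 passed (edgeR quasi-likelihood test; 0 at an unadjusted p under 0.05). The nearest, the transcribed pseudogene LINC01835 at 15.7 kb, stood at 4.25 and 3.62 CPM in the controls and at 6.47 and 4.04 CPM in the knockdown, with overlapping groups. CYP4F11, a fatty acid hydroxylase 76.0 kb away, stood at 7.33 and 8.79 CPM against 13.3 and 9.60 CPM without overlap, a log2 fold change of 0.51 ± 0.29 (SE). Over the 64 distinct genes within 200 kb of any of the 10, the median log2 fold change was 0.04. In edgeR 0 of them passed, against 0.877% of all tested genes. Of the 64, 16 (25%, against 22.1% of all tested genes) had an unadjusted p under 0.05 in edgeR, and DESeq2 called 7 (10.9%, against 9.11%).

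Of 20 tested regulators and partners of UCA1 named in earlier work, 0 passed in edgeR, which called 0.877% of all tested genes. The list's median was -0.05. In edgeR 10 (50.0%, against 22.1% of all tested genes) had an unadjusted p under 0.05, and DESeq2 called 8 (40.0%, against 9.11%). The groups did not overlap in 16 of the 20 (80.0%, against 54.9%), 8 higher and 8 lower. HNRNPA1, an hnRNP protein that UCA1 has been reported to bind, stood at 1436 and 1487 CPM in the controls and at 745 and 754 CPM in the knockdown libraries, a log2 fold change of -0.96 ± 0.18 (SE; edgeR adjusted p = 0.0534). SATB1, a chromatin organizer reported to repress UCA1, stood at 2.68 and 2.26 CPM against 10.1 and 6.86 CPM. EZH2, the histone methyltransferase of Polycomb, had a log2 fold change of -1.08 ± 0.21 (SE).

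The genes whose pattern over the 4 libraries came closest to that of UCA1 were CLDN9, AC005863.1, P3H2, TGM2 and NECTIN4. Closeness was the Euclidean distance between log2(CPM + 0.5) values centred over the libraries, taken over the 10919 genes whose mean reached 5 CPM; the distances ran from 0.15 for CLDN9 to 0.41 for NECTIN4. CLDN9, a claudin of tight junctions, stood at 1.89 and 1.96 CPM in the controls and at 10.7 and 10.8 CPM in the knockdown. TGM2, a transglutaminase that crosslinks proteins, stood at 12.4 and 16.1 CPM against 56.9 and 56.2 CPM. For NEAT1 the closest were CSAD, BCL11B, AL118506.1, LINC00667 and SUOX, at distances of 0.09 to 0.18. CLDN9, AC005863.1, P3H2 and NECTIN4 lay below 5 CPM in both controls, so they reached the mean of 5 CPM only through the knockdown libraries. The match to UCA1 also uses the same values that singled out UCA1. With 4 libraries these distances are descriptions, and nothing further is read from them.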

How the data were processed

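Unnormalized counts for each Ensembl gene, deposited by the authors as a single table, covered all 4 libraries. Per the submitters' processing notes HISAT2, edgeR and GRCh38 were used; the tool versions, the counting program, its annotation, its strand setting and how it handled reads shared by genes were not given in the sources used here. Columns were matched to samples by their descriptions and groups came from the titles. Counts were tested with edgeR 4.0.16 (R 4.3.3): quasi-likelihood test, TMM, filterByExpr with a minimum count of 10 (15170 genes kept), Benjamini-Hochberg adjustment at 0.05. The common biological coefficient of variation was 21.6%. An SE is the log2 fold change divided by the square root of the F statistic. The script was tested on simulated data. Alternatives were edgeR with DESeq2 size factors or library totals, DESeq2 1.42.0, limma-voom 3.58.1, no filter, each library left out, and a replicate block. Positions, exons and transcripts were taken from GENCODE v29 (GRCh38), where 58542 of the 60617 gene IDs were found; start windows and microRNAs came from RefSeq.

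The 10 genes and the 9 gene lists (snoRNA hosts, microRNA hosts, other cancer lncRNAs, UCA1 regulators and partners, paraspeckle proteins, nuclear speckle proteins, miR-31 and miR-205 targets, imprinted growth genes, and TINCR partners with late differentiation genes) were chosen with earlier results of these data known. Named genes were the 10, the called genes and up to 3 with the smallest p per list, the called and nearest genes around each of the 10, and the 5 closest patterns for UCA1 and NEAT1; others that are named were chosen after their values were seen. A gene that the rule would name, and 1 marker list, are not reported here.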

Additional observations from a re-analysis of the deposited data

How the results depend on the processing

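The count of called genes depended strongly on the processing. Against 133 genes (92 higher and 41 lower), edgeR with DESeq2 size factors called 207 (131 higher, 76 lower), with library totals 416 (306 higher, 110 lower) and without a filter on low counts 2139 (1343 higher, 796 lower). DESeq2 called 1382 (773 higher, 609 lower) and limma-voom 0 (0 higher, 0 lower, 3402 at an unadjusted p under 0.05). Leaving out each library gave 0 to 616 genes, with 0 to 346 higher and 0 to 270 lower; the test called 0 without control replicate 1 and 7 without knockdown replicate 2. In the fixed lists 2 genes were called; library totals gave 10, DESeq2 31, limma-voom 0, no filter 38, and leaving out a library 0 to 12. Near the 10 genes 0 were called; DESeq2 size factors gave 1, library totals 1, DESeq2 7, no filter 14, and leaving out a library 0 to 3.

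The replicate numbers are shared between the groups, and the running numbers in the sample descriptions place same-numbered libraries next to each other. No label states that they were paired. The deviations of same-numbered libraries had a correlation of 0.20 across genes. With a replicate block edgeR called 1579 genes (952 higher, 627 lower), 31 in the lists and 10 near the 10 genes. Of the 10 genes themselves it called UCA1, H19 (adjusted p = 0.000904) and TINCR (adjusted p = 0.00582). Nothing is read from these calls of the 10, given how the genes were chosen.

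Of 100 alternative fold changes of the 10 genes, 2 changed sign, those of MIR31HG and MIR205HG without knockdown replicate 1. UCA1 stayed between 2.14 and 2.31 in all 10 alternatives. The median of the snoRNA hosts, -0.40, became -0.62 without knockdown replicate 2. The list medians changed sign in 10 of 90 alternatives, all in lists whose median lay within 0.16 of 0. Depth limits H19 most, with 5 counts in control replicate 1.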

Other observations

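Other microRNA host genes split evenly by sign alone. Of 14 tested, 0 passed in edgeR, which called 0.877% of all tested genes. The log2 fold change lay above 0 in 7 and below 0 in 7. In edgeR 6 (42.9%, against 22.1% of all tested genes) had an unadjusted p under 0.05, and DESeq2 called 3 (21.4%, against 9.11%). DLEU2, the host of miR-15a and miR-16-1, stood at 5.29 and 3.39 CPM in the controls and at 0.938 and 0.969 CPM in the knockdown, a log2 fold change of -2.19 ± 0.43 (SE). MIR22HG stood at 14.2 and 28.9 CPM against 49.4 and 38.4 CPM. Of the 6 hosts with an unadjusted p under 0.05 in edgeR, MIR22HG alone lay above 0. The median of the list was -0.04, and it was -0.49 without knockdown replicate 1 and 0.33 without knockdown replicate 2.

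Among other lncRNAs known from cancer, 0 of 25 tested genes passed in edgeR (against 0.877% of all tested genes), with a median log2 fold change of 0.08. An unadjusted p under 0.05 in edgeR was found for 4 (16.0%, against 22.1% of all tested genes), and DESeq2 called 1 (4.0%, against 9.11%). TP53TG1, an RNA induced by p53, stood at 16.1 and 14.0 CPM in the controls and at 36.5 and 21.6 CPM in the knockdown. HCP5, an RNA of the HLA region, stood at 11.6 and 9.86 CPM against 15.2 and 18.2 CPM. LINC01133 stood at 0 and 0.238 CPM in the controls and at 0.642 and 1.22 CPM in the knockdown. Of 8 tested imprinted growth genes, the class that H19 belongs to, 0 passed in edgeR (against 0.877%) or DESeq2 (against 9.11%). An unadjusted p under 0.05 in edgeR was found for 1 (12.5%, against 22.1% of all tested genes). CDKN1C, a CDK inhibitor of the same imprinted region, stood at 3.22 and 6.77 CPM in the controls and at 10.5 and 10.6 CPM in the knockdown. KCNQ1OT1, also in the list, went the other way, from 4.22 and 4.04 CPM to 2.62 and 2.48 CPM without overlap. The list's median log2 fold change was 0.16, with 5 genes above 0 and 3 below.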
